A study of Mus musculus with 16 samples.

Results

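Hearts of untreated DBA/2J mice were set against hearts of C57Bl6/N mice in which a coronary artery had been tied off permanently, to place each gene of the uninjured DBA heart at, above or below its level in the infarcted C57 heart. The libraries of each group were taken by label, and the groups were chosen with earlier results of these data known. The libraries are 8 of the 16 in the series, 4 from untreated DBA mice and 4 from ligated C57 mice, with 1 library per mouse. The labels call the ligated samples remote, that is, tissue away from the infarct, and it was taken 2 weeks after the ligation. The 4 untreated C57 hearts serve as the baseline of the C57 strain, and the 4 ligated DBA hearts entered the statistical model without being compared here. All mice were female, 3 months old and of inbred strains, with no transgene. The strain label of both C57 groups is C57Bl6N, while the titles spell the untreated ones C57Bl-6NCR. Control mice had no operation, so an effect of surgery cannot be told apart from one of the infarct. Strain and ligation both differ between the 2 groups compared, so their effects on a gene cannot be told apart in this contrast. The sample labels give the tissue as septum and left ventricle, whereas the series text names the septum and the right ventricle.

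After an infarct, surviving heart muscle returns to part of its fetal program: it releases the natriuretic peptides encoded by Nppa and Nppb, and it makes skeletal actin (Acta1) and slow beta-myosin (Myh7). Fibroblasts lay down collagen and other matrix, macrophages enter, and the muscle lowers its genes for burning fatty acids. DBA/2J is an inbred strain known for a tendency to cardiac calcification after injury. The sequences shown are those directly upstream of these 4 stress genes. A link between these sequences and the levels of the genes was not tested. Each holds the 150 bases before the RefSeq start, from RefSeq, and capitals mark CATTCC (the MCAT element bound by TEAD factors), TATAAA and the CArG box bound by serum response factor, on either strand.
Nppa (GRCm38.p6, chr4:148000572-148000721, plus strand): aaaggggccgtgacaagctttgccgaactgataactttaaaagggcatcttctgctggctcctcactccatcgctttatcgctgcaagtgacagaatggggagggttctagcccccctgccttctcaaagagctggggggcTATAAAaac
Nppb (GRCm38.p6, chr4:147985750-147985899, plus strand): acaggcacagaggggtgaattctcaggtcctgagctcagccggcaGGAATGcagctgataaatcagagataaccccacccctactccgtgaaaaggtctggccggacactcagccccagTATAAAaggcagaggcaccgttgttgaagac
Acta1 (GRCm38.p6, chr8:123894776-123894925, minus strand): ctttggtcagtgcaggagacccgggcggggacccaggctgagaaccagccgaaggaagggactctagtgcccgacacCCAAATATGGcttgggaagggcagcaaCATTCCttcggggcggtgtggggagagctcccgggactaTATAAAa
Myh7 (GRCm38.p6, chr14:54994550-54994699, minus strand): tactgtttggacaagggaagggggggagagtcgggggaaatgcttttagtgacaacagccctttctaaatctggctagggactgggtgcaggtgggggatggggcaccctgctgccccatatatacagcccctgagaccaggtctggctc
Of 32841 RefSeq promoter windows of this length, 7.59% held CATTCC, 7.57% TATAAA and 0.917% a CArG box. The Acta1 window held all 3, Nppb held CATTCC on the reverse strand and TATAAA, Nppa held TATAAA, and Myh7 held none of these letters. The reference is of C57BL/6J origin, and no DBA/2J sequence was read. The deposited table starts Nppb at an earlier base than RefSeq does, inside the window shown.

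Depth was uneven. Untreated DBA libraries 1 to 4 held 14, 17, 7.58 and 4.92 M counts (M for mega), ligated C57 libraries between 13.7 and 20.9 M, and untreated C57 libraries between 8.22 and 14.2 M. The untreated DBA libraries also split along gene GC content. How far genes of a library deviated from the mean of its group had rank correlations with their GC content of 0.443 and 0.486 in untreated DBA libraries 1 and 2, and of -0.288 and -0.46 in the shallow libraries 3 and 4. In the ligated C57 libraries these correlations lay between -0.207 and 0.152. The 3 libraries under 9 M counts, untreated DBA libraries 3 and 4 and untreated C57 library 1, are called shallow, and results that end without them or with a correction for GC are named. Ligated DBA libraries are numbered 1, S40, S41 and S42 after their labels. Levels are CPM, counts scaled to 1 size for all libraries by TMM. Means are given ± SD over the 4 libraries of a group. Fold changes are log2 of untreated DBA over ligated C57 hearts with their standard error (SE). A gene is called higher or lower where the adjusted p of edgeR's quasi-likelihood test, adjusted by Benjamini-Hochberg over all genes, is under 0.05. A gene is within 1.5-fold where it is not called and its whole 95% interval lies inside a change of 1.5-fold either way, and otherwise unresolved. Gene positions are those of the deposited table, in mm10.

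Of 13504 genes tested, 2869 (21.2%) were higher and 2562 (19%) lower in untreated DBA than in ligated C57 hearts, together 40.2%. A further 4765 (35.3%) lay within 1.5-fold and 3308 (24.5%) were unresolved. The 4 libraries of one group lay beyond the 4 of the other for 4118 genes (30.5%). Calls with at least a 2-fold difference were 660 higher and 537 lower, and the log2 fold changes had a median of 0.00 over all genes. For scale, ligation in C57 mice raised 978 genes (7.24%) and lowered 818 (6.06%), and untreated DBA against untreated C57 hearts gave 1696 higher (12.6%) and 1339 lower (9.92%) genes. With library totals in place of TMM these became 1680 and 426 for ligation and 2114 and 961 for the strains. The ligation counts also rested on single libraries, with 384 raised and 234 lowered without ligated C57 library 1, and 463 and 291 without ligated C57 library 3. They were 562 and 369 without untreated C57 library 1, and 517 and 369 without untreated C57 library 2, whereas 1484 and 1370 were called without untreated DBA library 4. Ligation counts by list, given below, were not redone under these alternatives. The 3 contrasts share libraries, so their values are given side by side only.

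Read by gene lists, some shares differed between areas. Over all tested genes, 21.2% were higher, 19% lower and 35.3% within 1.5-fold. The lists named 710 genes, of which 672 were in the deposited table and 668 passed the filter on low counts. Of 141 tested matrix genes, 61 were lower and 23 higher in untreated DBA hearts, and 24 lay within 1.5-fold (median log2 fold change -0.37). Among 174 metabolic genes, 50 were higher and 28 lower and 77 lay within 1.5-fold (median 0.13). The 137 stress genes gave 32 higher, 34 lower and 48 within 1.5-fold, and the 130 immune genes 29, 36 and 17, with medians of -0.01 and 0.00. The shares of stress and immune genes called higher were near the 21.2% of all genes. Without the 3 shallow libraries the matrix genes gave 30 lower, the stress genes 20 higher and the metabolic genes 14 lower. Leaving out untreated DBA library 3 or ligated C57 library 3 gave 21 stress genes higher in each case, and leaving out untreated DBA library 3 or ligated C57 library 2 gave 17 and 15 metabolic genes lower.

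**Figure D1:**
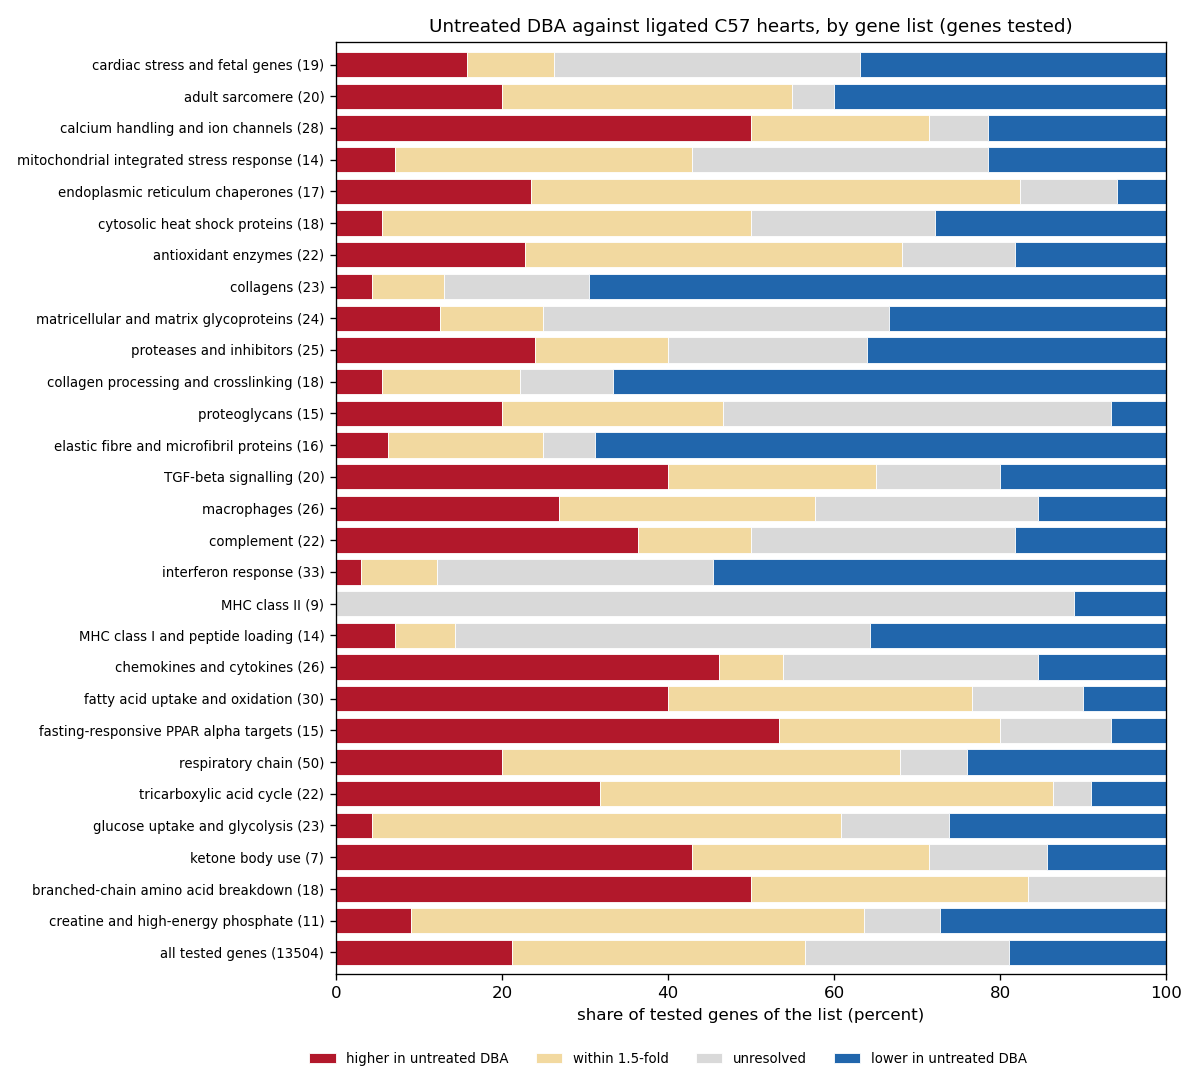
Share of the tested genes of each list, in percent, that were higher in untreated DBA hearts (red), within 1.5-fold (sand), unresolved (grey) or lower in untreated DBA hearts (blue) than in ligated C57 hearts. The number tested stands in brackets; 16 of 23 collagens and 18 of 33 interferon genes were lower, against 19% of all tested genes in the bottom bar.

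Among the stress genes, untreated DBA hearts had the natriuretic peptide gene Nppb below the range of infarcted C57 hearts, while Acta1, Myh7 and Nppa overlapped that range. Myh7 was called higher and Nppa lower, and both calls ended under several alternatives. Acta1 (chr8:123891758-123894775) had 2239, 1972, 958 and 986 CPM in untreated DBA hearts, against 1948, 789, 1701 and 775 CPM in ligated C57 hearts. The ranges overlapped and the difference was unresolved (log2 fold change 0.24 with an interval of -0.38 to 0.86, edgeR adjusted p = 0.53). Untreated C57 hearts held Acta1 at 184, 233, 179 and 178 CPM, below every library of the other groups, and ligation in C57 mice raised it (log2 fold change 2.75 ± 0.32, edgeR adjusted p = 0.000276). Myh7 (chr14:54970688-54994549) had 2217, 1853, 3019 and 3347 CPM in untreated DBA hearts, against 2759.8, 969, 959.8 and 915 CPM in ligated C57 hearts. Ligated C57 library 1 lay inside the DBA range and the other 3 far below it (log2 fold change 0.90 ± 0.29, edgeR adjusted p = 0.0209). The call of Myh7 ended in the 8 libraries alone (edgeR adjusted p = 0.091), with the 3 shallow libraries left out (adjusted p = 0.366) and without untreated DBA library 3 or 4 or ligated C57 library 2, 3 or 4 (adjusted p 0.0591 to 0.0883). In untreated C57 hearts Myh7 averaged 428 ± 71.1 CPM (SD, n = 4).

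Nppb (chr4:147985788-147987205), which encodes B-type natriuretic peptide, had 31.1, 110.4, 46.7 and 84.6 CPM in untreated DBA hearts, against 251, 223, 197 and 309 CPM in ligated C57 hearts. No library of either group reached the other (log2 fold change -1.84 ± 0.31, edgeR adjusted p = 0.000238). Nppb was at 136, 162, 91.7 and 96.2 CPM in untreated C57 hearts, so the DBA libraries lay within or below the range of uninjured C57 hearts. Nppa (chr4:148000746-148002067), for atrial natriuretic peptide, had 244, 365, 247 and 581 CPM in untreated DBA hearts, against 863, 469, 748 and 507 CPM in ligated C57 hearts. The groups overlapped, with untreated DBA library 4 above 2 of the ligated C57 libraries (log2 fold change -0.85 ± 0.24, edgeR adjusted p = 0.0116). The call of Nppa ended in the 8 libraries alone (edgeR adjusted p = 0.0564), in those 8 with a replicate block (adjusted p = 0.065) and with a GC correction (adjusted p = 0.107). Uninjured C57 hearts had Nppa at 131 ± 21.1 CPM, under every untreated DBA library. Nppa is also a gene of atrial muscle, and atrial markers differed between libraries. Myl7, the atrial myosin light chain, had 31.5, 12.1, 15.99 and 33.2 CPM in untreated DBA hearts, against 2.21, 0.892, 13.2 and 0.659 CPM in ligated C57 hearts. Of the 8 tested atrial markers, 4 were higher and none lower in untreated DBA hearts, against 21.2% and 19% of all genes. The summed level of the 8 markers was 228 to 443 CPM in untreated DBA hearts, 207 to 273 CPM in ligated C57 hearts and 281 to 444 CPM in untreated C57 hearts. Higher atrial muscle markers numbered between 1 and 5 with single libraries left out (changing most without untreated DBA library 1 or 4 or ligated C57 library 1 or 2) and 0 without the 3 shallow libraries. The part of atrial tissue in the Nppa values was not tested.

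**Figure D2:**
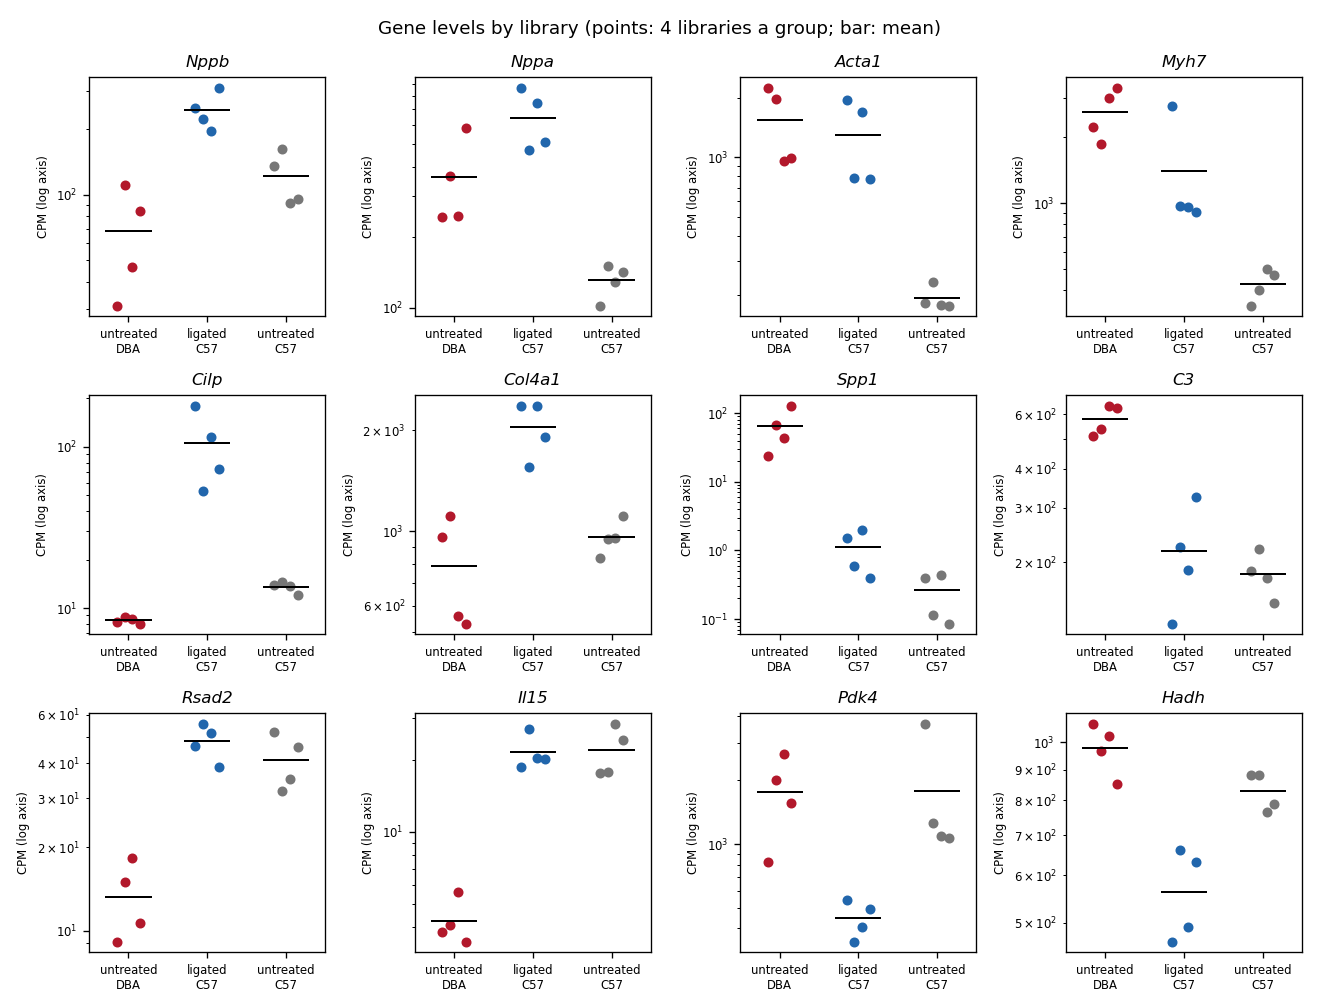
Level of 12 genes in CPM on a log axis, with 1 point per library and a bar at the mean of 4 libraries, for untreated DBA (red), ligated C57 (blue) and untreated C57 hearts (grey). Acta1 of untreated DBA hearts overlaps the ligated C57 range, Nppb and Cilp lie below it, and Spp1, C3 and Hadh lie above it.

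Other genes of the stress list that stayed under the infarcted level were led by Uchl1. Uchl1, a deubiquitinating enzyme, had 1.73, 2.55, 1.26 and 0.6504 CPM in untreated DBA hearts, against 21.02, 12.5, 18.8 and 12.1 CPM in ligated C57 hearts. The groups were far apart (log2 fold change -3.18 ± 0.28, edgeR adjusted p = 2.46e-07), and untreated C57 hearts, at 7.54 ± 1.85 CPM, also lay above the DBA ones. Csrp3, the Z-disc protein MLP, had 664, 823, 656 and 613 CPM in untreated DBA hearts, against 1186, 1217, 1179 and 965 CPM in ligated C57 hearts (log2 fold change -0.72 ± 0.11, edgeR adjusted p = 7.49e-05). Ankrd1, a stretch-responsive titin partner, averaged 2438 ± 910.01 CPM in untreated DBA, 3659.96 ± 836 CPM in ligated C57 and 1539.7 ± 300.5 CPM in untreated C57 hearts (log2 fold change -0.59 ± 0.21, edgeR adjusted p = 0.0342). The call of Ankrd1 ended in the 8 libraries alone (edgeR adjusted p = 0.102), in those 8 with a replicate block (adjusted p = 0.102) and without untreated DBA library 1, 2 or 3 or ligated C57 library 1 or 3 (adjusted p 0.0689 to 0.108). Gdf15, a circulating stress cytokine, had 0.935, 1.798, 0.561 and 0.434 CPM in untreated DBA hearts, against 2.62, 1.86, 0.828 and 2.77 CPM in ligated C57 hearts. It was unresolved (log2 fold change -0.90 with an interval of -1.69 to -0.10, edgeR adjusted p = 0.0656). Gdf15 was called without untreated DBA library 2 or ligated C57 library 3 (edgeR adjusted p 0.00766 to 0.014). At the infarcted level, within 1.5-fold, were Fhl1 (-0.01, interval -0.30 to 0.28), for a sarcomeric LIM protein, and Myc (0.13, interval -0.33 to 0.58), for a growth-related transcription factor. In all, of the list's 19 tested members, 3 were higher and 7 lower in untreated DBA hearts, against 21.2% and 19% of all genes. Another 2 lay within 1.5-fold and 7 were unresolved, with a median of -0.01. The 3 higher genes were Myh7, Rcan1, an inhibitor of calcineurin, and Il6st, the shared receptor of interleukin 6 cytokines. Higher stress and fetal genes numbered between 0 and 5 with single libraries left out (changing most without untreated DBA library 1 or 3 or ligated C57 library 2 or 3), 1 without the 3 shallow libraries, 0 in the 8 libraries alone and 1 in the 8 libraries with a replicate block. Lower stress and fetal genes numbered 4 with a GC correction and 3 in the 8 libraries alone, with or without a replicate block. Ligation in C57 mice had raised 9 of the 19 and lowered none, against 7.24% and 6.06% of all genes.

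The mature contractile genes split by gene. Myh6, the fast alpha-myosin of the adult mouse ventricle, averaged 49544 ± 8683 CPM in untreated DBA, 36759.6 ± 4209 CPM in ligated C57 and 48415 ± 2638 CPM in untreated C57 hearts (log2 fold change 0.43 ± 0.12, edgeR adjusted p = 0.00854). The call of Myh6 ended in the 8 libraries alone (edgeR adjusted p = 0.0688), in those 8 with a replicate block (adjusted p = 0.124) and with the 3 shallow libraries left out (adjusted p = 0.189). Cardiac actin Actc1 had 5616, 5531, 3845 and 3319 CPM in untreated DBA hearts, against 11744, 12804, 14671 and 12545 CPM in ligated C57 hearts, a clear gap (log2 fold change -1.50 ± 0.15, edgeR adjusted p = 1.08e-06). Actc1 averaged 11513 ± 1313 CPM in untreated C57 hearts. Myom2, of the M-band, and Mybpc3, myosin-binding protein C, were lower as well, with log2 fold changes of -0.76 and -0.79. Tnnc1, cardiac troponin C, was higher at 3136 ± 197 CPM in untreated DBA hearts and 2249.5 ± 70.8 CPM in ligated C57 hearts (log2 fold change 0.48 ± 0.08, edgeR adjusted p = 0.000353). Within 1.5-fold lay Actn2 (0.00, interval -0.18 to 0.18), the Z-disc crosslinker, and Nebl (0.08, interval -0.08 to 0.24), nebulette. Of the list's 20 tested members, 4 were higher in untreated DBA hearts, near the 21.2% of all genes, and 8 lower, against 19% of all genes. Another 7 lay within 1.5-fold and 1 was unresolved. Higher adult sarcomere genes numbered 2 without the 3 shallow libraries and 2 in the 8 libraries alone, with or without a replicate block. Lower adult sarcomere genes numbered 5 without the 3 shallow libraries.

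Genes for calcium handling and ion channels were more often above the infarcted level. Of 28 tested members, 14 were higher in untreated DBA hearts, against 21.2% of all genes, and 6 lower, near the 19% of all genes. Another 6 lay within 1.5-fold and 2 were unresolved, with a median log2 fold change of 0.30. Higher channel and calcium genes numbered between 9 and 14 with single libraries left out (changing most without untreated DBA library 3 or ligated C57 library 3) and 9 in the 8 libraries with a replicate block. Atp2a2, the calcium pump of the sarcoplasmic reticulum, which heart failure lowers, had 18167, 18649, 18487 and 15729 CPM in untreated DBA hearts, against 15319, 21989, 16120.1 and 20124 CPM in ligated C57 hearts. It lay within 1.5-fold (log2 fold change -0.05 with an interval of -0.28 to 0.18, edgeR adjusted p = 0.729), and uninjured C57 hearts averaged 24738 ± 695 CPM. Scn4b, a sodium channel beta subunit, had 139, 154, 84.2 and 58.5 CPM in untreated DBA hearts, against 26.4, 43.6, 28.5 and 31.5 CPM in ligated C57 hearts (log2 fold change 1.76 ± 0.26, edgeR adjusted p = 7.07e-05). Cacna1c, the L-type calcium channel, averaged 706 ± 80.5 CPM in untreated DBA hearts and 396 ± 75.3 CPM in ligated C57 hearts (log2 fold change 0.84 ± 0.12, edgeR adjusted p = 6.01e-05). Kcnd2, a transient outward potassium channel, averaged 75.6 ± 10.9 CPM in untreated DBA hearts and 36.3 ± 6.75 CPM in ligated C57 hearts (log2 fold change 1.06 ± 0.13, edgeR adjusted p = 8.45e-06). Kcnj11, the pore of the cardiac ATP-sensitive potassium channel, went the other way with 79.01, 85.1, 69.4 and 50.3 CPM in untreated DBA hearts, against 156, 199, 164 and 189 CPM in ligated C57 hearts (log2 fold change -1.31 ± 0.13, edgeR adjusted p = 8.77e-07). Kcnj11 averaged 197 ± 18.6 CPM in untreated C57 hearts. The same untreated C57 hearts had 36.5, 47.3, 72.4 and 63.3 CPM of Scn4b. Cacna1c was at 465, 448, 547 and 469 CPM there, and Kcnd2 at 54.7, 48.9, 50.7 and 42.7 CPM.

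Of 17 endoplasmic reticulum chaperones 10 lay within 1.5-fold, as did 8 of 18 cytosolic heat shock genes and 10 of 22 antioxidant enzymes, against 35.3% of all genes. Calnexin (Canx), a folding chaperone, averaged 599 ± 41.5 CPM in untreated DBA hearts and 418 ± 40.9 CPM in ligated C57 hearts (log2 fold change 0.52 ± 0.08, edgeR adjusted p = 0.000191). P4hb, protein disulfide isomerase, averaged 242 ± 31.1 CPM in untreated DBA hearts and 364 ± 32.5 CPM in ligated C57 hearts (log2 fold change -0.59 ± 0.09, edgeR adjusted p = 0.000133). Hspa8, the constitutive heat shock chaperone, had 866, 854, 904 and 836 CPM in untreated DBA hearts, against 1104, 1208, 1028 and 1525 CPM in ligated C57 hearts (log2 fold change -0.49 ± 0.11, edgeR adjusted p = 0.00254). Gsr, glutathione reductase, had 41.6, 43.1, 42.5 and 38.4 CPM in untreated DBA hearts, against 26.8, 26.3, 27.6 and 29.3 CPM in ligated C57 hearts (log2 fold change 0.59 ± 0.08, edgeR adjusted p = 2.09e-05). Nnt, the mitochondrial transhydrogenase that feeds NADPH to that system, had 742, 802, 766 and 656 CPM in untreated DBA hearts, against 927, 1380.3, 832 and 1207 CPM in ligated C57 hearts (log2 fold change -0.55 ± 0.13, edgeR adjusted p = 0.0028). Nnt averaged 1545 ± 83.99 CPM in untreated C57 hearts. The reference strain C57BL/6J is known to lack part of Nnt, so reads of the missing exons were not counted. In the mitochondrial stress response 1 of 14 tested genes was higher and 3 lower, against 21.2% and 19% of all genes. Another 5 lay within 1.5-fold and 5 were unresolved, with a median of -0.24. The higher ones numbered 3 with a GC correction, and the lower ones 2 to 5 with single libraries left out. Aldh1l2, a folate enzyme, was the higher one at 11.4 ± 2.33 CPM in untreated DBA hearts and 4.77 ± 0.895 CPM in ligated C57 hearts (log2 fold change 1.21 ± 0.17, edgeR adjusted p = 4.72e-05). Its pathway neighbour Mthfd2 was lower at 1.67 ± 0.668 CPM in untreated DBA hearts and 4.99 ± 1.32 CPM in ligated C57 hearts (log2 fold change -1.45 ± 0.24, edgeR adjusted p = 0.000242).

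**Figure D3:**
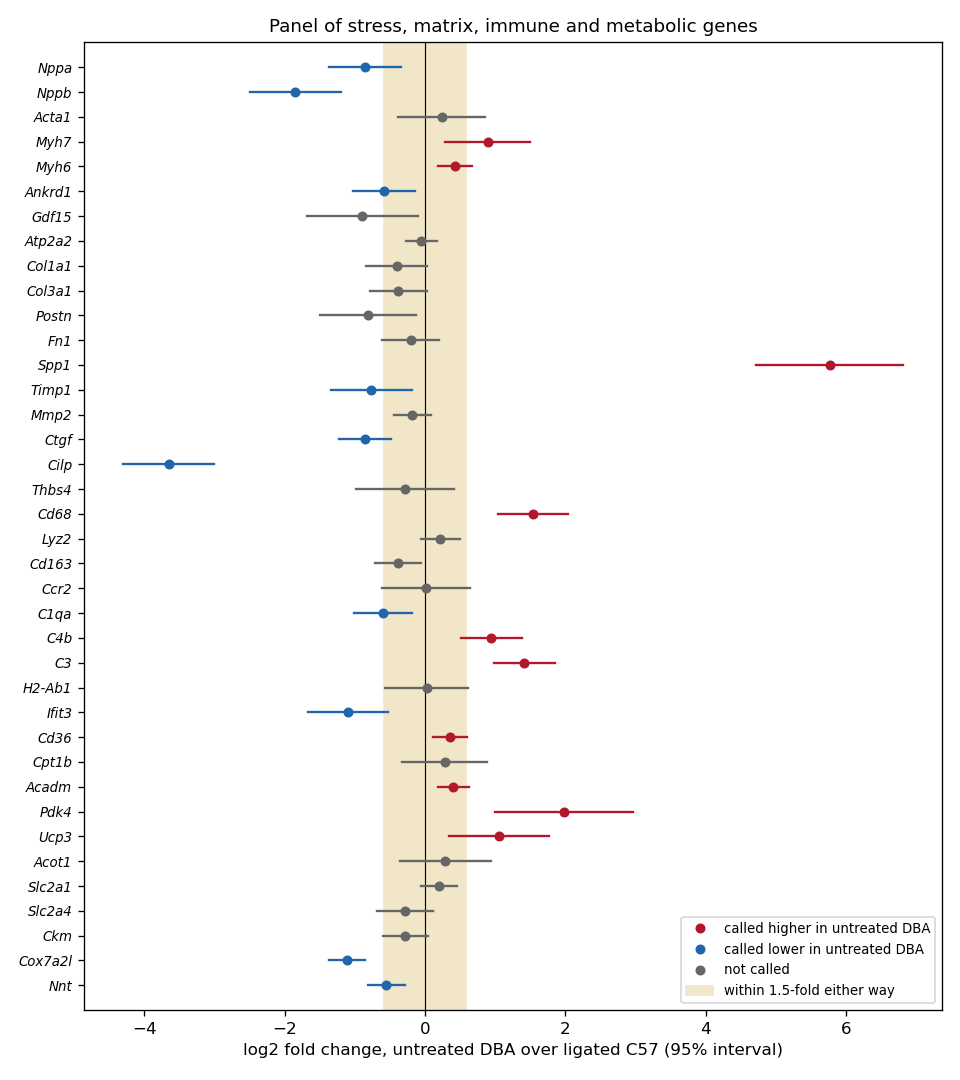
Log2 fold change of untreated DBA over ligated C57 hearts for 38 genes of the panel, with the 95% interval, coloured by call. The sand band marks a change within 1.5-fold; Spp1 at 5.77 and Cilp at -3.65 lie farthest from it, and Atp2a2, Mmp2, Lyz2 and Slc2a1 have their whole interval inside it.

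Most collagen genes of untreated DBA hearts lay below the infarcted C57 level. Of 23 tested members, 1 was higher and 16 lower in untreated DBA hearts, against 21.2% and 19% of all genes. Another 2 lay within 1.5-fold and 4 were unresolved, with a median log2 fold change of -0.69 against 0.00 over all genes. Ligation in C57 mice had raised 21 of the 23, against 7.24% of all genes. In untreated DBA over untreated C57 hearts 11 were higher, against 12.6% of all genes. The untreated DBA mean of 17 lay between those of ligated and untreated C57 hearts. Lower collagens numbered 4 without the 3 shallow libraries, 10 with a GC correction and 10 in the 8 libraries with a replicate block. The median without the shallow libraries was -0.47. Leaving out single libraries did not move the number of lower collagens by over 1.5 times (13 to 18).

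Col1a1 (chr11:94936270-94951856), the main chain of scar collagen, had 334, 400.1, 369 and 479 CPM in untreated DBA hearts, against 797, 329.7, 583 and 382 CPM in ligated C57 hearts. All DBA libraries fell inside the ligated range and the gene was unresolved (log2 fold change -0.40 with an interval of -0.84 to 0.03, edgeR adjusted p = 0.126). Col1a1 was called without ligated C57 library 2 (edgeR adjusted p = 0.029). Col3a1, its partner in young scar, had 949.9, 1133, 925 and 1349.7 CPM in untreated DBA hearts, against 2046, 913, 1623 and 1076 CPM in ligated C57 hearts (log2 fold change -0.38 with an interval of -0.79 to 0.03, edgeR adjusted p = 0.13). Col3a1 was called without ligated C57 library 2 (edgeR adjusted p = 0.0284). Untreated C57 hearts had 177 ± 17.4 CPM of Col1a1 and 518 ± 37.04 CPM of Col3a1, under every library of untreated DBA hearts.

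The basement membrane collagen Col4a1 (chr8:11198423-11312826) had 961, 1110.2, 561 and 532 CPM in untreated DBA hearts, against 2354, 1554, 2359 and 1914 CPM in ligated C57 hearts. The groups did not meet (log2 fold change -1.37 ± 0.21, edgeR adjusted p = 9.53e-05), and its partner Col4a2 was lower too (log2 fold change -1.14 ± 0.18, edgeR adjusted p = 0.000178). Untreated C57 hearts held 964 ± 115 CPM of Col4a1, a mean inside the range of the untreated DBA libraries. Col5a1, which sets fibril width, averaged 115 ± 38.1 CPM in untreated DBA hearts and 256 ± 91.7 CPM in ligated C57 hearts (log2 fold change -1.14 ± 0.24, edgeR adjusted p = 0.0014), and was not called with the shallow libraries left out (edgeR adjusted p = 0.0639). Col14a1, a fibril-associated collagen, lay within 1.5-fold (log2 fold change -0.09 with an interval of -0.44 to 0.26, edgeR adjusted p = 0.698). Col6a6 was the 1 collagen above the infarcted level, with 19.9, 20.4, 19.1 and 18.0 CPM in untreated DBA hearts, against 8.32, 12.1, 8.47 and 12.9 CPM in ligated C57 hearts (log2 fold change 0.91 ± 0.15, edgeR adjusted p = 0.000281).

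**Figure D4:**
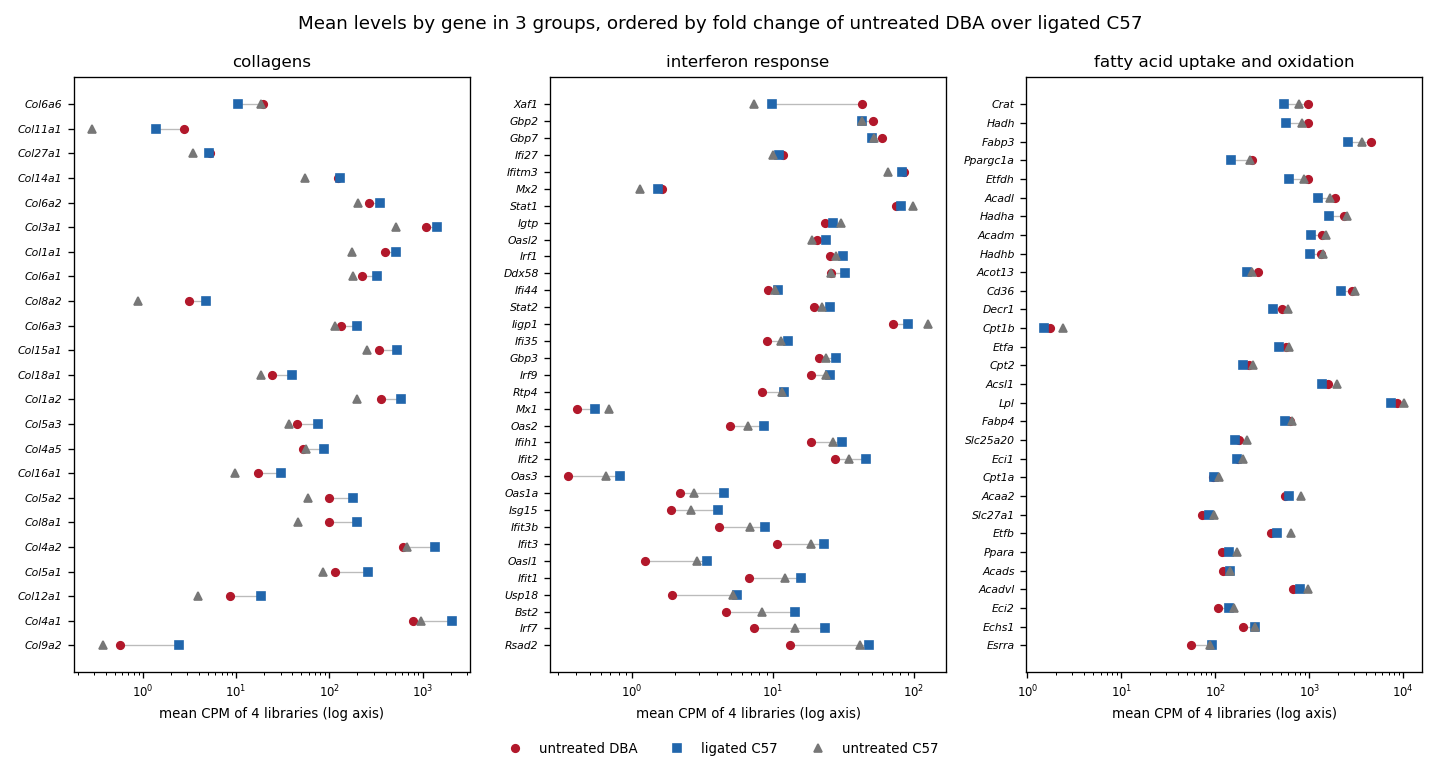
Mean CPM of 4 libraries on a log axis for each tested member of 3 lists, in untreated DBA (circles), ligated C57 (squares) and untreated C57 hearts (triangles), ordered by fold change. The untreated DBA mean lies between both C57 means for 17 of 23 collagens, below both for 26 of 33 interferon genes, and 20 of 30 fatty acid genes have the means of both untreated groups above that of ligated C57 hearts.

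Matricellular proteins, which tune matrix and cells without being structural, gave the widest spread. Osteopontin, Spp1 (chr5:104435111-104441053), had 23.7, 68.2, 44.2 and 127 CPM in untreated DBA hearts, against 1.54, 0.595, 1.98 and 0.395 CPM in ligated C57 hearts. Every DBA library exceeded every ligated C57 library by over an order of magnitude (log2 fold change 5.77 ± 0.50, edgeR adjusted p = 1.69e-07). Spp1 was at 0.402, 0.113, 0.443 and 0.0861 CPM in untreated C57 hearts. Cilp (chr9:65265180-65280605), a matrix protein made by fibroblasts in response to TGF-beta, stood at the other end with 8.196, 8.76, 8.56 and 8.02 CPM in untreated DBA hearts, against 179, 53.7, 116 and 73.5 CPM in ligated C57 hearts. The groups were again apart (log2 fold change -3.65 ± 0.31, edgeR adjusted p = 1.34e-07). Cilp was at 13.9, 14.5, 13.7 and 12.1 CPM in untreated C57 hearts, above all DBA libraries, with ligation in C57 mice raising it (log2 fold change 2.97 ± 0.29, edgeR adjusted p = 0.000124).

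Postn, periostin of activated fibroblasts, had 154, 146, 169.7 and 290.3 CPM in untreated DBA hearts, against 536, 154, 460.0 and 177 CPM in ligated C57 hearts. It was unresolved (log2 fold change -0.81 with an interval of -1.50 to -0.13, edgeR adjusted p = 0.0532). Postn was called with library totals in place of TMM (edgeR adjusted p = 0.0392), with a GC correction (adjusted p = 0.011) and without untreated DBA library 4 or ligated C57 library 2 or 4 (adjusted p 0.0129 to 0.0376). Fn1 (fibronectin) and Thbs4 (thrombospondin 4) were unresolved as well, at 258 against 297 CPM and 26.8 against 31.9 CPM as means of untreated DBA and ligated C57 hearts, with intervals of -0.61 to 0.20 and -0.98 to 0.42. Ctgf, the connective tissue growth factor CCN2, averaged 98.02 ± 29.5 CPM in untreated DBA, 175 ± 33.0 CPM in ligated C57 and 98.7 ± 13.04 CPM in untreated C57 hearts (log2 fold change -0.85 ± 0.18, edgeR adjusted p = 0.0015). Its relative Cyr61 (CCN1) went the other way with 68.4, 125, 97.8 and 98.7 CPM in untreated DBA hearts, against 60.9, 54.9, 50.02 and 49.6 CPM in ligated C57 hearts (log2 fold change 0.86 ± 0.17, edgeR adjusted p = 0.00109). Sparc, a collagen-binding protein, was lower (log2 fold change -0.75 ± 0.15, edgeR adjusted p = 0.00125), and Smoc2 lay within 1.5-fold (log2 fold change 0.00 with an interval of -0.27 to 0.27, edgeR adjusted p = 0.999). Of 24 tested members, 3 were higher and 8 lower in untreated DBA hearts, against 21.2% and 19% of all genes. Another 3 lay within 1.5-fold and 10 were unresolved. Lower matricellular genes numbered between 5 and 10 with single libraries left out (changing most without untreated DBA library 1 or 3, ligated DBA library S42, ligated C57 library 1 or 3 or untreated C57 library 3), 3 without the 3 shallow libraries, 5 in the 8 libraries alone and 4 in the 8 libraries with a replicate block.

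Matrix proteases and their inhibitors were called in both directions, with the enzymes Mmp12 and Mmp3 far above the infarcted level. The inhibitors Timp1 and Timp4 were below that level and Timp2 above it. Mmp12, the macrophage elastase (chr9:7347374-7360461), had 58.95, 116, 96.9 and 229.8 CPM in untreated DBA hearts, against 1.22, 0.818, 1.53 and 0.923 CPM in ligated C57 hearts. Untreated C57 hearts had 0.813 ± 0.275 CPM, and the DBA libraries lay above both C57 groups (log2 fold change 6.76 ± 0.41, edgeR adjusted p = 2.07e-09). Mmp3, stromelysin 1, had 21.2, 30.9, 19.5 and 27.97 CPM in untreated DBA hearts, against 2.44, 1.64, 2.42 and 2.90 CPM in ligated C57 hearts (log2 fold change 3.39 ± 0.31, edgeR adjusted p = 3.68e-07). Mmp19, another matrix metalloprotease, was higher at 10.2 ± 2.47 CPM in untreated DBA hearts and 4.38 ± 1.07 CPM in ligated C57 hearts (log2 fold change 1.23 ± 0.20, edgeR adjusted p = 0.000227). Mmp2, gelatinase A of fibroblasts, lay within 1.5-fold (log2 fold change -0.18 with an interval of -0.45 to 0.09, edgeR adjusted p = 0.263). Adamts5, an aggrecan-cleaving protease, did so too (log2 fold change 0.11 with an interval of -0.12 to 0.34, edgeR adjusted p = 0.432). Timp1, the inhibitor that injury induces, averaged 6.497 ± 1.53 CPM in untreated DBA, 10.8 ± 4.52 CPM in ligated C57 and 1.77 ± 0.201 CPM in untreated C57 hearts (log2 fold change -0.76 ± 0.27, edgeR adjusted p = 0.0347). The call of Timp1 ended in the 8 libraries alone (edgeR adjusted p = 0.0883), in those 8 with a replicate block (adjusted p = 0.116), with the 3 shallow libraries left out (adjusted p = 0.121), with a GC correction (adjusted p = 0.0598) and without untreated DBA library 1, 3 or 4 or ligated C57 library 1 or 3 (adjusted p 0.0501 to 0.138). Adamtsl2, a microfibril-bound regulator of TGF-beta, had 15.2, 17.9, 8.28 and 7.37 CPM in untreated DBA hearts, against 84.8, 29.1, 64.2 and 49.8 CPM in ligated C57 hearts (log2 fold change -2.15 ± 0.28, edgeR adjusted p = 2.20e-05). Of 25 tested members, 6 were higher in untreated DBA hearts, near the 21.2% of all genes, and 9 lower, against 19% of all genes. A further 4 lay within 1.5-fold and 6 were unresolved, with a median of -0.29. Lower proteases and inhibitors numbered 5 without the 3 shallow libraries.

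Genes that fold, cut and crosslink collagen were largely lower. Of 18 tested members, 1 was higher and 12 lower in untreated DBA hearts, against 21.2% and 19% of all genes. Another 3 lay within 1.5-fold and 2 were unresolved (median -0.60). The untreated DBA mean lay between those of untreated and ligated C57 hearts for 8 of the 18, and below both for 8. Loxl1, a lysyl oxidase, had 60.8, 71.8, 41.9 and 37.9 CPM in untreated DBA hearts, against 131, 81.8, 109 and 91.02 CPM in ligated C57 hearts (log2 fold change -0.94 ± 0.18, edgeR adjusted p = 0.000932). Tgm2, a transglutaminase, averaged 273 ± 41.1 CPM in untreated DBA hearts and 454 ± 38.5 CPM in ligated C57 hearts (log2 fold change -0.73 ± 0.11, edgeR adjusted p = 0.000102). Pcolce2, an enhancer of procollagen cleavage, averaged 27.8 ± 2.93 CPM in untreated DBA hearts and 45.8 ± 5.11 CPM in ligated C57 hearts (log2 fold change -0.74 ± 0.10, edgeR adjusted p = 3.16e-05). Fkbp10, a procollagen chaperone, was lower as well (log2 fold change -1.13 ± 0.23, edgeR adjusted p = 0.00105). The prolyl hydroxylase subunit P4ha3 was the 1 member called higher (log2 fold change 3.25 ± 0.77, edgeR adjusted p = 0.00478), with 1.15, 2.32, 3.79 and 17.1 CPM in untreated DBA hearts, against 0.542, 0.223, 1.02 and 0.3295 CPM in ligated C57 hearts. Untreated DBA library 4 stood far above the rest. Without that library the log2 fold change was 2.06 (edgeR adjusted p = 0.00611), and it was 1.70 with all shallow libraries left out (edgeR adjusted p = 0.0224). Higher collagen processing genes numbered 2 without the 3 shallow libraries.

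Elastic fibre genes followed the same direction. Eln, elastin (chr5:134702596-134747254), had 39.5, 40.5, 48.7 and 62.7 CPM in untreated DBA hearts, against 235, 71.8, 171 and 146 CPM in ligated C57 hearts, and no library crossed over (log2 fold change -1.73 ± 0.27, edgeR adjusted p = 0.000149). Eln averaged 32.1 ± 10.5 CPM in untreated C57 hearts. Fbln2 (fibulin 2) averaged 96.2 ± 23.5 CPM in untreated DBA hearts and 238 ± 50.8 CPM in ligated C57 hearts (log2 fold change -1.30 ± 0.16, edgeR adjusted p = 1.35e-05). Ltbp4, a latent TGF-beta binding protein, averaged 443 ± 152 CPM in untreated DBA hearts and 881 ± 92.4 CPM in ligated C57 hearts (log2 fold change -0.99 ± 0.19, edgeR adjusted p = 0.000704). Efemp1, fibulin 3, was higher with 16.5, 10.7, 21.9 and 20.8 CPM in untreated DBA hearts, against 2.12, 5.58, 4.14 and 8.37 CPM in ligated C57 hearts (log2 fold change 1.78 ± 0.34, edgeR adjusted p = 0.000741). Of 16 tested members, 1 was higher and 11 lower in untreated DBA hearts, against 21.2% and 19% of all genes. Another 3 lay within 1.5-fold and 1 was unresolved, with a median of -0.77. Higher elastic fibre genes numbered 2 with a GC correction. Lower elastic fibre genes numbered 7 without the 3 shallow libraries. Of 15 proteoglycans 3 were higher, near the 21.2% of all genes, and 1 lower, against 19% of all genes. Higher proteoglycans numbered between 1 and 7 with single libraries left out (changing most without untreated DBA library 2 or ligated C57 library 1 or 2), 1 without the 3 shallow libraries, 1 with a GC correction and 1 in the 8 libraries with a replicate block. Lower proteoglycans numbered between 1 and 2 with single libraries left out (changing most without untreated DBA library 2 or 4), 2 without the 3 shallow libraries, 2 with a GC correction and 2 with DESeq2. Hspg2, perlecan of the basement membrane, was the lower one (log2 fold change -0.81 ± 0.19, edgeR adjusted p = 0.00352). TGF-beta signalling had 8 of 20 tested genes higher and 4 lower in untreated DBA hearts, against 21.2% and 19% of all genes. Without the 3 shallow libraries, and also with a GC correction, 4 were higher. In the 8 libraries alone 3 were higher, and 2 with a replicate block. With single libraries left out the higher ones numbered 4 to 8 and the lower ones 2 to 6. Only 1 was lower without the shallow libraries. Smad3, a signal carrier of TGF-beta, was higher with 49.6, 52.4, 48.5 and 45.3 CPM in untreated DBA hearts, against 31.6, 29.6, 27.1 and 33.5 CPM in ligated C57 hearts (log2 fold change 0.69 ± 0.10, edgeR adjusted p = 5.46e-05). Its target Tgfbi was lower (log2 fold change -0.81 ± 0.16, edgeR adjusted p = 0.00131). Pmepa1, a feedback inhibitor induced by TGF-beta, lay within 1.5-fold (log2 fold change 0.11 with an interval of -0.13 to 0.34, edgeR adjusted p = 0.457). So did the receptor Tgfbr2 (log2 fold change -0.13 with an interval of -0.33 to 0.06, edgeR adjusted p = 0.267).

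Fibroblast markers summed to 3483 to 3898 CPM in untreated DBA hearts, 3861 to 4606 CPM in ligated C57 hearts and 3111 to 3377 CPM in untreated C57 hearts over 14 tested markers. The sums of untreated DBA and ligated C57 hearts overlapped narrowly. Of these, 3 were higher, 5 lower and 5 within 1.5-fold in untreated DBA against ligated C57 hearts. Over all genes the shares were 21.2%, 19% and 35.3%. Lower fibroblast markers numbered 3 without the 3 shallow libraries. Dpt, dermatopontin, had 209.7, 192, 216 and 263 CPM in untreated DBA hearts, against 99.8, 96.6, 114 and 110.0 CPM in ligated C57 hearts (log2 fold change 1.06 ± 0.11, edgeR adjusted p = 2.53e-06). Wif1, a Wnt inhibitor, had 26.8, 27.8, 19.8 and 23.4 CPM in untreated DBA hearts, against 5.83, 6.47, 4.59 and 6.72 CPM in ligated C57 hearts (log2 fold change 2.07 ± 0.16, edgeR adjusted p = 5.27e-08). All DBA libraries lay above the ligated ones for both, and below them for Meox1, a transcription factor of activated fibroblasts, with 16.6, 15.5, 12.5 and 10.2 CPM in untreated DBA hearts, against 51.9, 24.2, 33.1 and 37.4 CPM in ligated C57 hearts (log2 fold change -1.39 ± 0.20, edgeR adjusted p = 5.48e-05). In tissue RNA, fewer cells of a type and less RNA per cell cannot be told apart. The part of fibroblast number in the matrix values was not tested.

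Immune genes were called in both directions. Of the chemokine and cytokine list 12 of 26 genes were higher, of complement 8 of 22 and of the macrophage list 7 of 26, against 21.2% of all tested genes. Of the interferon list 18 of 33 were lower, against 19% of all. Cd68, a lysosomal protein of macrophages, had 27.9, 28.2, 35.5 and 61.4 CPM in untreated DBA hearts, against 13.3, 9.59, 16.4 and 11.8 CPM in ligated C57 hearts (log2 fold change 1.54 ± 0.24, edgeR adjusted p = 0.000123). Lgals3, galectin 3, had 11.7, 24.9, 15.3 and 27.8 CPM in untreated DBA hearts, against 5.61, 3.79, 4.59 and 3.16 CPM in ligated C57 hearts, with no overlap (log2 fold change 2.17 ± 0.28, edgeR adjusted p = 1.68e-05). Lgals3 averaged 1.48 ± 0.758 CPM in untreated C57 hearts. Lyz2, lysozyme, lay within 1.5-fold (log2 fold change 0.22 with an interval of -0.05 to 0.50, edgeR adjusted p = 0.184). Ccr2, the receptor of recruited monocytes, was unresolved (log2 fold change 0.01 with an interval of -0.61 to 0.64, edgeR adjusted p = 0.979). Mertk, a receptor for engulfing dead cells, was lower with 5.18, 6.61, 6.31 and 6.504 CPM in untreated DBA hearts, against 10.9, 11.2, 12.1 and 12.7 CPM in ligated C57 hearts (log2 fold change -0.94 ± 0.14, edgeR adjusted p = 6.36e-05). Cd163, of resident macrophages, averaged 22.6 ± 1.57 CPM in untreated DBA hearts and 29.6 ± 5.59 CPM in ligated C57 hearts and was unresolved (log2 fold change -0.38 with an interval of -0.71 to -0.06, edgeR adjusted p = 0.0562). Cd163 was called with library totals in place of TMM (edgeR adjusted p = 0.0355), with a GC correction (adjusted p = 0.0257) and without ligated C57 library 1 or untreated C57 library 2 or 3 (adjusted p 0.0261 to 0.0452).

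Of the macrophage list's 26 tested members, 7 were higher and 4 lower in untreated DBA hearts, against 21.2% and 19% of all genes. Another 8 lay within 1.5-fold and 7 were unresolved. Higher macrophage genes numbered between 4 and 9 with single libraries left out (changing most without ligated C57 library 1, 2 or 4) and 4 in the 8 libraries with a replicate block. Lower macrophage genes numbered between 2 and 5 with single libraries left out (changing most without untreated DBA library 3 or ligated C57 library 3), 1 without the 3 shallow libraries and 2 in the 8 libraries alone, with or without a replicate block. Summed over the 26 markers the level was 1239.8 to 1393 CPM in untreated DBA hearts, 1104 to 1393 CPM in ligated C57 hearts and 938 to 1033 CPM in untreated C57 hearts, so the untreated DBA and ligated C57 sums overlapped. Lymphocyte markers were low in each group, with sums of 2.37 to 8.24 CPM in untreated DBA hearts, 2.57 to 4.57 CPM in ligated C57 hearts and 2.44 to 3.396 CPM in untreated C57 hearts over 4 tested genes. None of the 4 was called. Higher lymphocyte markers numbered between 0 and 1 with single libraries left out (changing most without untreated DBA library 1) and 1 with DESeq2. Lower lymphocyte markers numbered between 0 and 1 with single libraries left out (changing most without untreated DBA library 4) and 1 without the 3 shallow libraries.

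Complement, the protein cascade that tags and lyses targets, split by component. C3, the central component (chr17:57203967-57228136), had 511, 538, 638 and 631 CPM in untreated DBA hearts, against 127, 225, 189.5 and 326 CPM in ligated C57 hearts. The groups lay apart (log2 fold change 1.42 ± 0.21, edgeR adjusted p = 7.11e-05), and untreated C57 hearts, at 184 ± 30.3 CPM, lay within the range of the ligated ones. C4b had 47.02, 79.2, 46.1 and 34.9 CPM in untreated DBA hearts, against 28.4, 25.4, 33.96 and 21.2 CPM in ligated C57 hearts (log2 fold change 0.95 ± 0.21, edgeR adjusted p = 0.00206). C4b averaged 11.9 ± 1.75 CPM in untreated C57 hearts. The near-identical C4a had no count in the 4 ligated C57 libraries and 83 counts over the untreated DBA libraries, at least 37.5-fold higher at a floor of 3 counts over the group, and reads of the C4 pair can be exchanged in counting. C1qa, a chain of the initiating complex made by macrophages, was below the infarcted level, averaging 39.2 ± 15.4 CPM in untreated DBA hearts and 60.8 ± 11.98 CPM in ligated C57 hearts (log2 fold change -0.60 ± 0.20, edgeR adjusted p = 0.0234). The call of C1qa ended in the 8 libraries alone (edgeR adjusted p = 0.0972), with the 3 shallow libraries left out (adjusted p = 0.233), with a GC correction (adjusted p = 0.0707) and without untreated DBA library 3 or 4 or ligated C57 library 3 (adjusted p 0.0547 to 0.0838). C1qb was lower too (log2 fold change -0.56 ± 0.13, edgeR adjusted p = 0.00373), a call that ended with a GC correction (edgeR adjusted p = 0.0582). Of 22 tested members, 8 were higher in untreated DBA hearts, against 21.2% of all genes, and 4 lower, near the 19% of all genes. Another 3 lay within 1.5-fold and 7 were unresolved. Lower complement genes numbered between 2 and 5 with single libraries left out (changing most without ligated C57 library 3).

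The interferon response was the immune list with the most genes below the infarcted level. Of 33 tested members, 1 was higher and 18 lower in untreated DBA hearts, against 21.2% and 19% of all genes. Another 3 lay within 1.5-fold and 11 were unresolved, with a median of -0.46. Without the 3 shallow libraries 1 was higher and 18 lower. Rsad2, the antiviral enzyme viperin, had 9.13, 15.02, 18.2 and 10.6 CPM in untreated DBA hearts, against 46.3, 55.5, 51.7 and 38.7 CPM in ligated C57 hearts (log2 fold change -1.86 ± 0.20, edgeR adjusted p = 2.53e-06). Untreated C57 hearts had 51.9, 31.8, 35.3 and 45.8 CPM, also above all DBA libraries. Irf7, a transcription factor that amplifies the response, had 7.26, 8.23, 9.397 and 4.34 CPM in untreated DBA hearts, against 26.5, 26.2, 28.7 and 12.1 CPM in ligated C57 hearts (log2 fold change -1.64 ± 0.27, edgeR adjusted p = 0.000216). Usp18, which switches it off, averaged 1.91 ± 0.323 CPM in untreated DBA hearts and 5.53 ± 1.38 CPM in ligated C57 hearts (log2 fold change -1.48 ± 0.25, edgeR adjusted p = 0.000264). Ifit3 averaged 10.7 ± 4.15 CPM in untreated DBA, 23.1 ± 8.104 CPM in ligated C57 and 18.4 ± 5.19 CPM in untreated C57 hearts (log2 fold change -1.09 ± 0.27, edgeR adjusted p = 0.00498). The groups overlapped for this gene, which has a close copy, Ifit3b. Ligation in C57 mice raised 1 of the 33 and lowered none, against 7.24% and 6.06% of all genes. In untreated DBA over untreated C57 hearts 6 were lower, against 9.92% of all genes. Xaf1, a proapoptotic interferon target, was the 1 member higher, with 35.9, 32.99, 52.2 and 50.1 CPM in untreated DBA hearts, against 10.6, 9.74, 12.04 and 7.12 CPM in ligated C57 hearts (log2 fold change 2.09 ± 0.17, edgeR adjusted p = 6.97e-08).

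Antigen presentation leaned the same way for peptide loading. Tap1, of the peptide transporter, had 7.19, 10.4, 9.96 and 4.12 CPM in untreated DBA hearts, against 17.3, 25.4, 21.2 and 12.5 CPM in ligated C57 hearts (log2 fold change -1.21 ± 0.26, edgeR adjusted p = 0.00166). Psmb10, an immunoproteasome subunit, had 28.3, 27.4, 20.9 and 14.5 CPM in untreated DBA hearts, against 46.9, 47.9, 50.3 and 36.2 CPM in ligated C57 hearts (log2 fold change -0.95 ± 0.16, edgeR adjusted p = 0.000201). Of 14 tested members 5 were lower and 7 unresolved, against 19% and 24.5% of all genes. H2-K1 and H2-D1 moved in opposite directions (log2 fold change -0.89 ± 0.21, edgeR adjusted p = 0.00376, and log2 fold change 0.56 ± 0.21, edgeR adjusted p = 0.0388). The strains carry different alleles of these closely related genes, so reads may be lost or exchanged in counting. The call of H2-D1 ended with library totals in place of TMM (edgeR adjusted p = 0.051), in the 8 libraries alone (adjusted p = 0.0789), with the 3 shallow libraries left out (adjusted p = 0.334) and without untreated DBA library 3 or 4, ligated DBA library 1 or S40 or ligated C57 library 1, 3 or 4 (adjusted p 0.0508 to 0.176). The class II gene H2-Ab1 was unresolved (log2 fold change 0.03 with an interval of -0.57 to 0.62, edgeR adjusted p = 0.949), as were 8 of 9 class II genes in all.

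Chemokines and cytokines were more often higher. Of 26 tested members, 12 were higher and 4 lower in untreated DBA hearts, against 21.2% and 19% of all genes. Another 2 lay within 1.5-fold and 8 were unresolved, with a median of 0.32. Higher chemokines and cytokines numbered 7 in the 8 libraries alone, with or without a replicate block. Il1rn, the interleukin 1 receptor antagonist, had 3.38, 6.90, 4.91 and 17.8 CPM in untreated DBA hearts, against 0.407, 0.446, 0.573 and 0.395 CPM in ligated C57 hearts (log2 fold change 4.04 ± 0.51, edgeR adjusted p = 1.42e-05). Cxcl16, a chemokine and scavenger receptor of macrophages, had 32.8, 29.2, 36.5 and 32.96 CPM in untreated DBA hearts, against 17.6, 12.3, 14.1 and 9.75 CPM in ligated C57 hearts (log2 fold change 1.27 ± 0.16, edgeR adjusted p = 1.90e-05). Ccl3, a monocyte attractant, had 1.58, 1.798, 0.842 and 3.04 CPM in untreated DBA hearts, against 0.0904, 0.0743, 0.0637 and 0.198 CPM in ligated C57 hearts (log2 fold change 3.93 ± 0.52, edgeR adjusted p = 2.39e-05). Il15, a survival factor of natural killer and memory T cells, was lower with 3.81, 4.06, 5.61 and 3.47 CPM in untreated DBA hearts, against 18.8, 27.1, 20.5 and 20.2 CPM in ligated C57 hearts (log2 fold change -2.35 ± 0.19, edgeR adjusted p = 7.60e-08). Il15 was at 17.7, 17.9, 28.3 and 24.2 CPM in untreated C57 hearts. Both C57 groups lay above every untreated DBA library.

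Of 174 metabolic genes, 50 were higher and 28 lower in untreated DBA than in ligated C57 hearts, against 21.2% and 19% of all genes. Another 77 lay within 1.5-fold, against 35.3% of all genes. C57 ligation had lowered 60 and raised 5 of the 174, against 6.06% and 7.24% of all genes. Such ligation counts moved strongly with single libraries over all genes and were not redone by list. Of the fatty acid list's 30 tested members, 12 were higher and 3 lower in untreated DBA hearts, against 21.2% and 19% of all genes. Another 11 lay within 1.5-fold and 4 were unresolved (median 0.22). Higher fatty acid genes numbered 6 in the 8 libraries alone and 7 in the 8 libraries with a replicate block. Ligation in C57 mice had lowered 16 of the 30 and raised none. Hadh, a beta-oxidation dehydrogenase, had 1073, 966, 1023 and 853 CPM in untreated DBA hearts, against 465, 661, 492 and 632 CPM in ligated C57 hearts (log2 fold change 0.80 ± 0.11, edgeR adjusted p = 4.33e-05). The groups did not overlap, and untreated C57 hearts had 882, 880.3, 764 and 788 CPM. Crat, which buffers acetyl groups as acetylcarnitine, averaged 959 ± 86.5 CPM in untreated DBA, 544 ± 83.3 CPM in ligated C57 and 779 ± 62.6 CPM in untreated C57 hearts (log2 fold change 0.82 ± 0.11, edgeR adjusted p = 1.92e-05). Etfdh, which passes electrons from beta-oxidation to the respiratory chain, was higher (log2 fold change 0.65 ± 0.10, edgeR adjusted p = 0.000133), as was Acadm, the medium-chain dehydrogenase (log2 fold change 0.40 ± 0.10, edgeR adjusted p = 0.00635). The call of Acadm ended in the 8 libraries alone (edgeR adjusted p = 0.0507) and in those 8 with a replicate block (adjusted p = 0.0587). The carnitine carrier Slc25a20 lay within 1.5-fold (log2 fold change 0.13 with an interval of -0.05 to 0.31, edgeR adjusted p = 0.226).

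Cd36, the fatty acid transporter, averaged 2824 ± 341 CPM in untreated DBA, 2202 ± 250.4 CPM in ligated C57 and 3074 ± 337 CPM in untreated C57 hearts (log2 fold change 0.36 ± 0.11, edgeR adjusted p = 0.0202). The call of Cd36 ended in the 8 libraries alone (edgeR adjusted p = 0.0675), in those 8 with a replicate block (adjusted p = 0.08), with the 3 shallow libraries left out (adjusted p = 0.148), with a GC correction (adjusted p = 0.694) and without untreated DBA library 3 or ligated C57 library 1 (adjusted p 0.0757 to 0.0805). Cpt1b, the muscle gate of mitochondrial fatty acid entry, was counted at only 1.73 ± 0.594 CPM in untreated DBA hearts and 1.52 ± 0.279 CPM in ligated C57 hearts and was unresolved (log2 fold change 0.28 with an interval of -0.32 to 0.89, edgeR adjusted p = 0.447). It overlaps a read-through transcript with its neighbour Chkb, so its counts are uncertain. Esrra, a driver of oxidative genes, was lower (log2 fold change -0.70 ± 0.24, edgeR adjusted p = 0.0267). The call of Esrra ended in the 8 libraries alone (edgeR adjusted p = 0.0951), with the 3 shallow libraries left out (adjusted p = 0.0504) and without untreated DBA library 3 or ligated C57 library 2 (adjusted p 0.0639 to 0.0902). The 3 lower members of the list, Echs1, Eci2 and Esrra, were not called without the 3 shallow libraries, nor without untreated DBA library 3 or ligated C57 library 2, nor in the 8 libraries alone. Without untreated DBA library 4, 1 of them was called.

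Targets of PPAR alpha, the receptor that turns on fat use in fasting, were more often above the infarcted level than below it. Of 15 tested members, 8 were higher and 1 lower in untreated DBA hearts, against 21.2% and 19% of all genes. Another 4 lay within 1.5-fold and 2 were unresolved, with a median of 0.57. Higher PPAR alpha targets numbered between 5 and 9 with single libraries left out (changing most without ligated C57 library 4) and 4 without the 3 shallow libraries. Pdk4, which blocks glucose oxidation, had 823, 2007, 2660.2 and 1559.8 CPM in untreated DBA hearts, against 544, 347, 404 and 492 CPM in ligated C57 hearts (log2 fold change 1.98 ± 0.47, edgeR adjusted p = 0.00352). Untreated C57 hearts had 3684, 1261, 1087 and 1073 CPM. Ucp3, an uncoupling protein of muscle, averaged 91.4 ± 35.8 CPM in untreated DBA, 44.2 ± 11.99 CPM in ligated C57 and 141 ± 34.6 CPM in untreated C57 hearts (log2 fold change 1.05 ± 0.34, edgeR adjusted p = 0.0203). The call of Ucp3 ended with the 3 shallow libraries left out (edgeR adjusted p = 0.139) and without untreated DBA library 2 or 4 or ligated C57 library 1 or 4 (adjusted p 0.0532 to 0.101). Acot1, an acyl-CoA thioesterase, averaged 5.64 ± 1.901 CPM in untreated DBA, 4.72 ± 1.06 CPM in ligated C57 and 14.6 ± 4.43 CPM in untreated C57 hearts and was unresolved (log2 fold change 0.29 with an interval of -0.36 to 0.94, edgeR adjusted p = 0.469). Mlycd, malonyl-CoA decarboxylase, was the 1 member lower (log2 fold change -0.94 ± 0.14, edgeR adjusted p = 9.28e-05). Feeding state was not given in the sources used here, and its part in these genes was not tested.

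In the respiratory chain, 24 of 50 genes lay within 1.5-fold, against 35.3% of all genes (median 0.02). Another 10 were higher, near the 21.2% of all genes, and 12 lower, against 19% of all genes. Higher respiratory genes numbered between 5 and 12 with single libraries left out (changing most without ligated C57 library 1), 3 without the 3 shallow libraries, 5 in the 8 libraries alone and 6 in the 8 libraries with a replicate block. Lower respiratory genes numbered between 6 and 15 with single libraries left out (changing most without untreated DBA library 3 or ligated C57 library 2), 6 without the 3 shallow libraries and 4 in the 8 libraries alone. Cox7a2l, which joins respiratory complexes into supercomplexes, had 105, 99.97, 96.1 and 66.8 CPM in untreated DBA hearts, against 191, 217, 189 and 201 CPM in ligated C57 hearts (log2 fold change -1.11 ± 0.12, edgeR adjusted p = 3.67e-06). Cox7a2l averaged 228 ± 34.4 CPM in untreated C57 hearts. Of 22 genes of the tricarboxylic acid cycle and pyruvate entry 12 lay within 1.5-fold and 7 were higher, against 35.3% and 21.2% of all genes. Among the higher ones were Pdk1, a pyruvate dehydrogenase kinase (log2 fold change 0.54 ± 0.08, edgeR adjusted p = 0.00012), and Suclg2, a succinate-CoA ligase subunit (log2 fold change 0.63 ± 0.10, edgeR adjusted p = 0.000124).

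Glucose genes moved with the processing. Of 23 tested members, 1 was higher and 6 lower in untreated DBA hearts, against 21.2% and 19% of all genes. Another 13 lay within 1.5-fold and 3 were unresolved, with a median log2 fold change of -0.18. Higher glucose genes numbered between 1 and 2 with single libraries left out (changing most without untreated DBA library 2 or 4, ligated C57 library 2 or 3 or untreated C57 library 1), 3 without the 3 shallow libraries, 6 with a GC correction and 3 with DESeq2. The median of these glucose genes was 0.08 without the shallow libraries and 0.01 with a GC correction. Eno3, muscle enolase, had 709, 703, 483 and 403 CPM in untreated DBA hearts, against 1073, 1341, 1194 and 1079 CPM in ligated C57 hearts (log2 fold change -1.03 ± 0.15, edgeR adjusted p = 9.27e-05). Gpi1, an early step of glycolysis, averaged 407 ± 60.6 CPM in untreated DBA hearts and 705 ± 23.4 CPM in ligated C57 hearts (log2 fold change -0.79 ± 0.09, edgeR adjusted p = 6.05e-06). Pfkfb2, which makes the activator of phosphofructokinase, was higher (log2 fold change 0.86 ± 0.14, edgeR adjusted p = 0.000214). The transporter Slc2a1 (GLUT1) lay within 1.5-fold (log2 fold change 0.20 with an interval of -0.06 to 0.46, edgeR adjusted p = 0.207). Slc2a1 was called with the 3 shallow libraries left out (edgeR adjusted p = 0.04) and with a GC correction (adjusted p = 0.0313). The insulin-dependent transporter Slc2a4 (GLUT4) was unresolved (log2 fold change -0.28 with an interval of -0.68 to 0.12, edgeR adjusted p = 0.249). So was muscle creatine kinase, Ckm (log2 fold change -0.28 with an interval of -0.59 to 0.04, edgeR adjusted p = 0.148). Without the shallow libraries both changed side, at 0.08 for Slc2a4 and 0.01 for Ckm, and neither was called. Ckm was called without untreated DBA library 1 (edgeR adjusted p = 0.0317).

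Breakdown of branched-chain amino acids, which failing hearts are known to lower, was the metabolic list with no gene called below the infarcted level. Of 18 tested members, 9 were higher and 0 lower in untreated DBA hearts, against 21.2% and 19% of all genes. Another 6 lay within 1.5-fold and 3 were unresolved (median 0.30). C57 ligation had lowered 11 of the 18, against 6.06% of all genes. Auh, of leucine breakdown, had 113, 104, 114 and 106 CPM in untreated DBA hearts, against 49.2, 65.5, 55.2 and 43.4 CPM in ligated C57 hearts (log2 fold change 1.03 ± 0.10, edgeR adjusted p = 9.50e-07). Auh averaged 89.8 ± 5.14 CPM in untreated C57 hearts. Mut, methylmalonyl-CoA mutase, averaged 200.2 ± 19.4 CPM in untreated DBA, 138 ± 21.3 CPM in ligated C57 and 188 ± 2.43 CPM in untreated C57 hearts (log2 fold change 0.53 ± 0.10, edgeR adjusted p = 0.000465). Lower branched-chain genes numbered between 0 and 1 with single libraries left out (changing most without untreated DBA library 2 or ligated C57 library 3) and 1 with a GC correction. Among 7 genes of ketone use, Acat1 was higher (log2 fold change 0.54 ± 0.12, edgeR adjusted p = 0.0023). Gatm, which makes the creatine precursor, was higher too, with 12.2, 11.3, 16.8 and 21.2 CPM in untreated DBA hearts, against 6.96, 4.31, 4.33 and 4.55 CPM in ligated C57 hearts (log2 fold change 1.54 ± 0.23, edgeR adjusted p = 9.99e-05).

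The largest differences were in genes with few or no counts in 1 of the groups compared. Of the 8 with the largest fold change upward, 7 had no count in any ligated C57 library. At a floor of 3 counts over the group, their bounds were H2-Ea-ps at least 525-fold, Ifi202b at least 508-fold, Mrap2 at least 288-fold, Pax1 at least 176-fold, Mcpt2 at least 150.04-fold, C1rb at least 89.8-fold and Neto1 at least 85.4-fold higher. Hamp2, a hepcidin paralog, had 47.6, 32.5, 65.5 and 95.4 CPM in untreated DBA hearts, against 0, 0, 0.0637 and 0 CPM in ligated C57 hearts. H2-Ea-ps is the class II alpha gene that C57BL/6 mice carry in inactive form, and Ifi202b is an interferon-inducible DNA sensor. Mrap2 is an accessory protein of melanocortin receptors, Pax1 a transcription factor of the embryonic skeleton, Mcpt2 a mast cell protease, C1rb a complement protease and Neto1 an auxiliary subunit of glutamate receptors. Neither Pax1 (edgeR adjusted p = 0.0869) nor Neto1 (edgeR adjusted p = 0.0563) was called once the shallow libraries were left out, with 68 and 86 counts of Pax1 and 48 and 49 of Neto1 left in untreated DBA libraries 1 and 2, against 0 in every ligated C57 library. Both genes also varied among ligated DBA libraries 1, S40, S41 and S42, which held 132, 149, 0 and 1 counts of Pax1 and 62, 55, 6 and 3 of Neto1.

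At the other end, Olfr1033 had no count in the untreated DBA libraries and was at least 119-fold lower there, with 7.96, 7.81, 8.86 and 8.70 CPM in ligated C57 hearts. Trim12a, of the antiviral TRIM family, had 0, 0, 0.1403 and 0 CPM in untreated DBA hearts, against 10.7, 10.2, 10.7 and 8.11 CPM in ligated C57 hearts. Nxpe4 had 0.144, 0.116, 0.421 and 0.434 CPM in untreated DBA hearts, against 21.6, 20.7, 23.4 and 19.6 CPM in ligated C57 hearts (log2 fold change -6.59 ± 0.28, edgeR adjusted p = 2.48e-11), and its log2 fold change was -7.29 with the shallow libraries left out. Pttg1, securin of the dividing cell, had 3.02, 3.42, 1.403 and 1.73 CPM in untreated DBA hearts, against 40.5, 60.9, 51.2 and 50.5 CPM in ligated C57 hearts (log2 fold change -4.24 ± 0.18, edgeR adjusted p = 2.48e-11). Pttg1 was at 71.2, 73.5, 73.3 and 73.5 CPM in untreated C57 hearts. The others of the 8 were Fggy, a sugar kinase, Trim30d, Srp54a, a subunit of the signal recognition particle, and Trpm3, a cation channel. Untreated DBA against ligated C57 hearts averaged 0.0881 against 3.93 CPM, 0.0991 against 4.35 CPM, 0.112 against 3.75 CPM and 0.487 against 7.59 CPM of these, in that order. Trim12a, Trim30d, Srp54a, Hamp2, C1rb and Mcpt2 have close relatives in the genome, and DBA reads were counted against a C57BL/6 reference, so strain differences in sequence can change these counts. How far they did was not tested.

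Cardiomyocyte markers were present in every library, with sums of 70284 to 96358 CPM in untreated DBA hearts, 64338 to 77065 CPM in ligated C57 hearts and 86034 to 99311 CPM in untreated C57 hearts over 6 markers. Of these, 4 were higher and 1 lower in untreated DBA hearts, against 21.2% and 19% of all genes. Higher cardiomyocyte markers numbered between 2 and 4 with single libraries left out (changing most without untreated DBA library 3 or ligated C57 library 1 or 3), 1 without the 3 shallow libraries and 1 in the 8 libraries alone, with or without a replicate block. Tnnt2, cardiac troponin T, had 10856, 7825, 14038 and 18287 CPM in untreated DBA hearts, against 5351, 5911, 6208 and 6853 CPM in ligated C57 hearts (log2 fold change 1.07 ± 0.21, edgeR adjusted p = 0.00113). Endothelial markers summed to 2377 to 2472 CPM in untreated DBA hearts, 2808 to 2966 CPM in ligated C57 hearts and 2558 to 2949 CPM in untreated C57 hearts over 15 genes. Of the 15, 7 were lower, against 19% of all genes, among them the receptors Tie1 and Robo4. Tie1 differed most (log2 fold change -1.20 ± 0.18, edgeR adjusted p = 0.00011), with Robo4 next (log2 fold change -1.03 ± 0.12, edgeR adjusted p = 4.74e-06). Neutrophil markers were scarce, with sums of 3.51 to 4.93 CPM in untreated DBA hearts, 1.32 to 3.71 CPM in ligated C57 hearts and 0.5903 to 2.604 CPM in untreated C57 hearts over 3 genes. The part of these cell types in the stress, matrix, immune and metabolic values was not tested.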

How the data were processed

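PolyA RNA of mouse heart tissue was sequenced, 1 library per mouse and 4 mice per group. The authors deposited whole-number read counts per gene, 13842 genes for 16 libraries. Per the submitters' processing notes, STAR 2.5.2b, featureCounts of Subread 1.5.1, edgeR and mm10 were used; gene annotation and strand setting were not given in the sources used here. No gene of the table had fewer than 45 counts over the 16 libraries, and 16 per-sample columns on a log scale were not used. Libraries held 4.92 to 22 M counts (M for mega), and counting error adds most for low genes in the shallow ones. Groups came from the sample titles. Nothing says how mice were housed or batched. The p-values measure the spread between these libraries, 1 per mouse, which also differed in depth and GC content.

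The quasi-likelihood test of edgeR 4.0.16 (R 4.3.3, limma 3.58.1) was run on the counts with TMM scaling, its filter by group (13504 genes kept) and robust dispersion, with 4 group means over all 16 libraries and Benjamini-Hochberg adjustment over all genes. Strand being unknown, reads of overlapping genes cannot be told apart. The SE is the log2 fold change divided by the root of the F statistic. Alternatives were DESeq2 1.42.0, other scalings, no filter, the 8 libraries alone with and without a replicate block, a GC offset (GC content was found for 96.4% of genes), 16 leave-one-out fits and a 2-fold bound in place of 1.5-fold. Code was tested on simulated data. Named genes were a panel of 39, the 8 largest differences each way among called genes at 2 CPM or more whose libraries did not overlap and that have a gene name, up to 4 called genes per list by smallest p (more to show both directions), and up to 2 per list with the narrowest interval within 1.5-fold. Timp2, Timp4, Rcan1, Il6st, Echs1 and Eci2 were named after their values were seen, to account for small counts. A few genes that this rule names are not reported here. The groups, lists and named genes were chosen with earlier results of these data known.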

Additional observations from a re-analysis of the deposited data

Results flagged for a closer look

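In 30 of 453 sets of 4 libraries (1 gene in 1 group), 1 library lay far from the others by Dixon's criterion at 95%. In 7 of them the group held a single count beside 3 zeros, which meets the criterion by construction, and 23 others remained. Chance gives about 1 in 20 such sets, and no cause of any was tested. Untreated DBA library 3 stood apart for Trim12a, at 0.1403 CPM there and 0 CPM in the others, and Slc25a20, at 197 CPM there and 173.6 to 174.1 CPM in the others. Untreated DBA library 4 stood apart for Atp2a2, at 15730.0 CPM there and 18170.0 to 18650.0 CPM in the others, and Postn, at 290.3 CPM there and 146 to 169.7 CPM in the others. It also did so for Pax1, at 15.6 CPM there and 4.89 to 6.31 CPM in the others, and P4ha3, at 17.1 CPM there and 1.15 to 3.79 CPM in the others. Further genes were Pmepa1, at 83.5 CPM there and 81.3 to 81.7 CPM in the others, and C1qb, at 27.97 CPM there and 37.5 to 38.3 CPM in the others. Ligated C57 library 1 stood apart for Myh7, at 2760.0 CPM there and 915 to 969 CPM in the others, and Gatm, at 6.96 CPM there and 4.31 to 4.55 CPM in the others. Ligated C57 library 2 stood apart for Ctgf, at 126 CPM there and 188 to 198 CPM in the others. Ligated C57 library 3 stood apart for Hamp2, at 0.0637 CPM there and 0 CPM in the others, and Myl7, at 13.2 CPM there and 0.659 to 2.21 CPM in the others. The same held for Acta2, at 349 CPM there and 159 to 178 CPM in the others. Ligated C57 library 4 stood apart for Csrp3, at 965 CPM there and 1179 to 1217 CPM in the others, and Irf7, at 12.1 CPM there and 26.2 to 28.7 CPM in the others. Untreated C57 library 1 stood apart for Ccr2, at 6.44 CPM there and 3.28 to 3.79 CPM in the others, and H2-Ab1, at 57.95 CPM there and 25.5 to 30.8 CPM in the others. It also did so for Pdk4, at 3684 CPM there and 1073 to 1261 CPM in the others, and Hamp2, at 0.134 CPM there and 0 CPM in the others. Further genes were Neto1, at 0.134 CPM there and 0 CPM in the others, and Trim12a, at 11.9 CPM there and 8.19 to 8.61 CPM in the others. The same held for Pttg1, at 71.2 CPM there and 73.3 to 73.5 CPM in the others, and Actc1, at 9566 CPM there and 12000.0 to 12440.0 CPM in the others. It also did so for Mmp19, at 2.95 CPM there and 3.96 to 4.13 CPM in the others. Untreated C57 library 2 stood apart for Acta1, at 233 CPM there and 178 to 184 CPM in the others, and Ifi202b, at 0.113 CPM there and 0 CPM in the others. Untreated C57 library 4 stood apart for Pax1, at 0.0861 CPM there and 0 CPM in the others, and Nxpe4, at 18.5 CPM there and 13.4 to 14.1 CPM in the others. Further genes were C4a, at 0.0861 CPM there and 0 CPM in the others.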

How the results depend on the processing

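Counts of called genes depended most on which libraries entered. With single libraries left out, the genes higher in untreated DBA than in ligated C57 hearts ranged from 2159 to 3191 and the lower ones from 1854 to 3246, the stress genes called higher from 21 to 37 and the metabolic genes called lower from 15 to 37. The C57 ligation contrast ranged from 384 to 1484 genes higher and from 234 to 1370 lower. Without the 3 shallow libraries 1885 genes were higher, with 20 stress genes higher, 30 matrix genes lower and 14 metabolic genes lower, and C57 ligation gave 1522 higher and 1307 lower. In the 8 libraries alone and no replicate block, 1733 genes were higher and 1521 lower, with 18 stress genes higher and 12 metabolic genes lower. The replicate block on the same 8 gave 1680 higher and 1719 lower, with 19 stress, 14 matrix and 19 immune genes higher. Deviations of same-numbered libraries correlated at -0.0353, 0.108, -0.000154 and 0.0954, so the numbers were not taken to pair the libraries. Library totals in place of TMM gave 1680 higher and 426 lower genes for C57 ligation. DESeq2, DESeq2 size factors, no filter and the GC correction kept these counts within 1.5 times, while the balance turned to 2545 higher and 2560 lower genes with the GC correction. No named gene that was called, in either setting, changed sign between settings, and 32 named genes that were not called did. Of 248 named genes, 73 changed their call in the contrast of untreated DBA over ligated C57 hearts under at least 1 alternative. What causes these shifts was not tested. Low depth in untreated DBA libraries 3 and 4 limits genes of few counts.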

Other observations

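Markers of pericytes and smooth muscle were called in both directions. Acta2, smooth muscle actin, was higher at 956, 626, 758 and 515 CPM in untreated DBA hearts, against 159, 164, 349 and 178 CPM in ligated C57 hearts (log2 fold change 1.75 ± 0.22, edgeR adjusted p = 1.82e-05). Myh11, smooth muscle myosin, was higher at 132 ± 30.7 CPM in untreated DBA hearts and 72.3 ± 5.46 CPM in ligated C57 hearts (log2 fold change 0.86 ± 0.15, edgeR adjusted p = 0.000325). Pdgfrb, the receptor that recruits pericytes, was lower at 101 ± 17.8 CPM in untreated DBA hearts and 151 ± 20.9 CPM in ligated C57 hearts (log2 fold change -0.57 ± 0.11, edgeR adjusted p = 0.00106). Mcam, an adhesion molecule, was lower at 45.1, 47.5, 32.5 and 33.4 CPM in untreated DBA hearts, against 81.6, 64.01, 76.5 and 71.4 CPM in ligated C57 hearts (log2 fold change -0.87 ± 0.12, edgeR adjusted p = 5.04e-05). Of the 12 tested markers of this list 5 were higher and 6 lower in untreated DBA hearts, against 21.2% and 19% of all genes. All 12 had groups that did not overlap, against 30.5% of all genes. Of 5 tested Schwann cell markers 4 were higher and 1 lower, against 21.2% and 19% of all genes. Sox10, the lineage's transcription factor, was higher at 3.14 ± 1.21 CPM in untreated DBA, 1.27 ± 0.377 CPM in ligated C57 and 2.11 ± 0.718 CPM in untreated C57 hearts (log2 fold change 1.34 ± 0.31, edgeR adjusted p = 0.0033), and so was Kcna1, a potassium channel, at 9.803 ± 0.666 CPM in untreated DBA, 4.24 ± 1.88 CPM in ligated C57 and 10.6 ± 2.88 CPM in untreated C57 hearts (log2 fold change 1.23 ± 0.25, edgeR adjusted p = 0.00136). Prx, periaxin of myelinating Schwann cells, was the lower one, with 1.37, 1.57, 0.421 and 0.434 CPM in untreated DBA hearts, against 2.62, 2.23, 2.103 and 1.85 CPM in ligated C57 hearts (log2 fold change -0.99 ± 0.34, edgeR adjusted p = 0.0289). The call of Prx ended in the 8 libraries alone (edgeR adjusted p = 0.0612), with the 3 shallow libraries left out (adjusted p = 0.171) and without untreated DBA library 3 or 4 or ligated C57 library 1 (adjusted p 0.0583 to 0.084).

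Genes of dividing cells were lower where called, 12 of 20 against 19% of all genes. None was higher, against 21.2% of all genes, and 7 were lower without the 3 shallow libraries. Rrm2, which makes DNA precursors, had 3.09, 3.25, 2.81 and 3.47 CPM in untreated DBA hearts, against 15.1, 6.17, 9.43 and 20.3 CPM in ligated C57 hearts (log2 fold change -2.02 ± 0.35, edgeR adjusted p = 0.00034), and untreated C57 hearts averaged 3.804 ± 1.04 CPM. Ccnb1, cyclin B1, averaged 0.604 ± 0.352 CPM in untreated DBA, 3.21 ± 1.06 CPM in ligated C57 and 0.585 ± 0.257 CPM in untreated C57 hearts (log2 fold change -2.35 ± 0.41, edgeR adjusted p = 0.000384), and Iqgap3 0.909 ± 0.632 CPM in untreated DBA, 6.44 ± 1.33 CPM in ligated C57 and 1.87 ± 0.937 CPM in untreated C57 hearts (log2 fold change -2.59 ± 0.40, edgeR adjusted p = 0.000107). Their summed level over the 20 genes was 92.1 to 154 CPM in untreated DBA hearts, 142 to 218 CPM in ligated C57 hearts and 139 to 215 CPM in untreated C57 hearts, so the sums overlapped. Alas2, the haem enzyme of red cell precursors and the 1 erythroid marker tested, had 9.06, 6.96, 4.49 and 2.82 CPM in untreated DBA hearts, against 35.3, 20.3, 14.4 and 19.9 CPM in ligated C57 hearts (log2 fold change -1.84 ± 0.35, edgeR adjusted p = 0.000846), and untreated C57 hearts had 10.5, 21.2, 18.1 and 18.5 CPM. Plin1, which coats fat droplets, averaged 1.19 ± 0.522 CPM in untreated DBA, 0.289 ± 0.238 CPM in ligated C57 and 0.692 ± 0.498 CPM in untreated C57 hearts (log2 fold change 1.85 ± 0.54, edgeR adjusted p = 0.012).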
